A study of Macaca mulatta with 7 samples.

Results

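Protamines and transition proteins are the small basic proteins that pack the DNA of the sperm head, and their transcripts are among the most abundant RNAs left in ejaculated sperm. The genes described here are PRM1 and PRM2, which encode the protamines, TNP1 and TNP2, which encode the transition proteins, and HMGB4, which encodes a testis-enriched HMG-box protein. They were chosen by name, all 5 are among the 18284 genes of the deposited table, and for each the sense and antisense counts, the covered fraction and the exon entries were taken.

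Total RNA of sperm from rhesus macaques (Macaca mulatta) was sequenced in 7 libraries. The 3 Maltreated libraries, named so by the submitters, came from animals aged 5.67 to 5.78 years, and the 4 Control libraries from animals aged 5.72 to 5.92 years. The labels name no allele, strain or drug for either group, and the sperm of both groups passed through a PureSperm 40/80 gradient before TRIzol extraction. The series title sets the comparison in the question of whether early life stress leaves a trace in germline RNA. The labels give every library an age of its own but do not state that each comes from a separate animal, so p-values measure the spread between these libraries.

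In spermatids the histones are removed in steps. Transition proteins occupy the DNA first, and protamines then replace them and condense the nucleus to the form found in sperm. Protamine 1 is made in its mature form, while protamine 2 is made as a precursor that is cut after it binds DNA. In mouse, the transcripts of these genes are made in round spermatids and stored, and they are translated only after transcription has stopped. Mature sperm make no new RNA, so their transcripts are what remained from these earlier stages. The ratio of the protamines is studied in men as a measure of sperm quality. HMGB4 binds DNA through its HMG boxes, and in mouse it was described as a transcriptional repressor.

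The deposited files give coordinates of a genome build that the labels do not name, with 20 autosomes, 2a and 2b among them. In these, PRM1 (chromosome 16, positions 11290483 to 11290981), PRM2 (11284766 to 11285608) and TNP2 (11276904 to 11278394) lie on the minus strand within 14.1 kb. The only other gene listed in that span is PRM3, a small single-exon gene. TNP1 lies on the minus strand of chromosome 2b (105014259 to 105014858). HMGB4 lies on the plus strand of chromosome 1 (32783146 to 32787429), inside an 81.5 kb gap between exons of CSMD2, a large gene of the opposite strand. Each of the 5 genes has 2 annotated exons, with summed lengths of 407 bases for PRM1, 683 for PRM2, 400 for TNP1, 621 for TNP2 and 2348 for HMGB4. No exon of another listed gene overlaps any of these exons on either strand.

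The libraries held between 5316383 and 30715268 sense counts (reads of a gene's own strand, summed over its exons), the highest number in Maltreated 1 and the lowest in Control 4. Antisense counts made up 6.15 to 9.69% of all counts in Maltreated and 6.85 to 12.1% in Control libraries. All 12 further sperm and late spermatid markers had counts, with a summed level of 3776 to 11230.1 CPM (counts scaled to an equal library total) in Maltreated and 4425 to 9039 CPM in Control libraries. ODF2 supplied most of this sum, with 2624 to 8719 CPM in Maltreated and 3121 to 5272 CPM in Control libraries. Levels of single genes, here and below, are CPM scaled with TMM factors, while sums of a marker list are scaled to the library total alone. LDHC reached at most 13.4 CPM and ACRV1 at most 9.13 CPM, and SPACA1 was at 0 in Control 4. The 13 leukocyte markers summed to 8.27, 51.1 and 1002 CPM in Maltreated 1 to 3 and to 6.30, 7.42, 36.98 and 683 CPM in Control 1 to 4, so Maltreated 3 and Control 4 stood apart from the other libraries in this sum. CD74 supplied most of it in Control 4 (497 CPM). Among the 8 markers with enough counts to be tested, Control 4 was highest for CD74, C1QB and CSF3R. Maltreated 3 was highest for PTPRC, CD68, ITGAM, CD14 and LYZ. PTPRC stood at 3.91 CPM in Control 4 and at 67.4 CPM in Maltreated 3. The 8 markers of epithelium and accessory glands summed to 6.49 to 29.4 CPM in Maltreated and 19.2 to 279 CPM in Control libraries, where Control 2 was the highest and the others held at most 31.98 CPM, and the 9 of testis somatic cells (INSL3 at 0) to 16.9 to 272 CPM in Maltreated and 8.94 to 136 CPM in Control libraries. The 272 CPM of testis somatic markers were those of Maltreated 3, where VIM alone stood at 246 CPM, AMH at 3.65 and COL1A1 at 1.74 CPM. In Control 4, which held the 136 CPM, VIM stood at 62.4, COL1A1 at 35.96 and ACTA2 at 26.8 CPM. The 8 markers of earlier germ cells summed to 241 to 348 CPM in Maltreated and 229 to 277 CPM in Control libraries. The part of RNA from other cells in the levels below was not tested. Values of the members without Maltreated 3 and Control 4 follow their fold changes. In bulk RNA, fewer sperm and less RNA per sperm cannot be told apart.

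The 5 genes together took 8.96, 4.35 and 4.38% of all sense counts in Maltreated 1 to 3 and 5.24, 5.597, 5.603 and 4.02% in Control 1 to 4. PRM2 alone took 7.21, 2.92 and 2.96% in Maltreated 1 to 3 and 3.87, 3.71, 3.83 and 2.93% in Control 1 to 4. PRM2 thus supplied most of the counts of the 5 genes in every library, and Maltreated 1 stood above the others.

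On the scale of counts per kb of exon, which allows levels of different genes to be compared, the order was PRM2, PRM1 and TNP1, TNP2 and HMGB4. PRM2 ranked first among all genes per kb in 7 of 7 libraries. It stood at 58130 ± 23565 CPM per kb over all libraries (SD, n = 7), where the CPM are scaled with TMM factors. PRM1 stood at 16752 ± 3525 and TNP1 at 16856 ± 4095 CPM per kb (SD, n = 7). TNP2 stood at 2707 ± 879 and HMGB4 at 93.5 ± 23.7 CPM per kb (SD, n = 7). The HMGB4 value divides by all 2348 annotated bases, of which sense reads covered 30.8 to 88.1% in a library, against 100% for TNP2. The rank of HMGB4 and its distance from TNP2 therefore depend on the annotated length.

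PRM2 exceeded PRM1 per kb by 1.74 ± 0.25 on the log2 scale (mean ± SD over 7 libraries), or 3.34-fold, in 7 of 7 libraries. TNP1 exceeded TNP2 by 2.67 ± 0.39 (log2, SD), or 6.37-fold, and TNP2 exceeded HMGB4 by 4.83 ± 0.33, or 28.4-fold, each in 7 of 7 libraries. In a two-sided exact sign-flip permutation test, adjusted over 4 neighbour pairs, each of these steps gave an adjusted p of 0.0208, and the unadjusted p of 0.0156 is the smallest that 7 libraries can give. The order, and with it the choice of neighbour pairs, was taken from these same libraries, so these p-values are not an independent test of it. PRM1 and TNP1 did not differ beyond their spread, with a mean log2 ratio of 0.0011 ± 0.35 (SD), PRM1 higher in 3 of 7 libraries and an exact adjusted p of 1. PRM1 and TNP1 ranked between the second and the fourth place per kb in all libraries, TNP2 between 7 and 15, and HMGB4 between 386 and 708. In the textbook account the transition proteins themselves no longer occupy the DNA of mature sperm.

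The main comparison asked whether these transcripts differ between Maltreated and Control sperm. None of the 5 did in the edgeR test, where 0 of 10719 genes tested passed (0%), so the count of members says nothing particular to them. Their groups overlapped in all 5 genes, while over all tested genes 3.59% had groups without overlap. All Maltreated libraries lay above all Control libraries in 2.1% and below them in 1.49% of tested genes. Maltreated over Control, the log2 fold change was positive in 3 members and negative in 2, with a median of 0.12 beside -0.02 over all tested genes. The unadjusted p of the 5 ran from 0.413 to 0.880 in edgeR, where 1.78% of genes had one under 0.05, and the edgeR adjusted p was 0.999 for each. DESeq2 called 0.028% of genes and none of the 5.

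PRM2, the protamine made as a precursor, stood at 74203, 30125 and 27429 CPM in Maltreated 1 to 3, and at 40657, 37176, 39314 and 29016 CPM in Control 1 to 4. Maltreated 1 lay far above every other library and Maltreated 3 was the lowest of all 7. The group values were 43919 ± 26261 CPM in Maltreated (SD, n = 3) and 36541 ± 5217 CPM in Control sperm (SD, n = 4). This gave a log2 fold change of 0.27 ± 0.33 (SE), with a 95% interval of -0.47 to 1.00. Without Maltreated 1, which also has the most counts of any library, it was -0.35, without Control 4 it was 0.15 and without Maltreated 3 it was 0.50.

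PRM1, the protamine common to mammals, stood at 9488, 6112 and 5804 CPM in Maltreated 1 to 3, and at 6604, 7475, 7183 and 5061 CPM in Control 1 to 4. Maltreated 1 was again the highest, and Control 4 the lowest. The other Maltreated libraries lay below Control 1, 2 and 3. For PRM1 the log2 fold change was 0.12 ± 0.24 (SE), with a 95% interval of -0.42 to 0.65. It was -0.15 without Maltreated 1, -0.01 without Control 4 and 0.23 without Maltreated 3.

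TNP1, the more abundant transition protein transcript, stood at 5682, 6808 and 5993 CPM in Maltreated 1 to 3, and at 6229, 9147, 8712 and 4625 CPM in Control 1 to 4. Unlike the protamines, TNP1 was lower in Maltreated 1 than in the other Maltreated libraries. The Maltreated libraries lay close together, at 6161 ± 582 CPM (SD, n = 3), inside the range of the Control libraries at 7178 ± 2133 CPM (SD, n = 4). Its log2 fold change was -0.22 ± 0.26 (SE), with a 95% interval of -0.79 to 0.35. It was -0.08 without Control 2, the library with the highest level, -0.11 without Control 3 and -0.39 without Control 4, the library with the lowest level. Control 2 also held 279 CPM of epithelium and accessory gland markers, most of it from TGM4 (247 CPM), a part that was not tested.

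TNP2, the second transition protein, stood at 2536, 1640 and 1226 CPM in Maltreated 1 to 3, and at 1367, 2083, 1951 and 963 CPM in Control 1 to 4. Maltreated 1 was the highest library and Control 4 the lowest. The log2 fold change was 0.18 ± 0.33 (SE), with a 95% interval of -0.54 to 0.90, and it was -0.16 without Maltreated 1, -0.02 without Control 4 and 0.38 without Maltreated 3.

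HMGB4 stood at 296, 186 and 163 CPM in Maltreated 1 to 3, and at 236, 197, 290.2 and 167 CPM in Control 1 to 4. Maltreated 1 and Control 3 were nearly equal at the top, and the libraries with the highest leukocyte marker sums, Maltreated 3 and Control 4, were the lowest. The log2 fold change was -0.05 ± 0.31 (SE), with a 95% interval of -0.73 to 0.64. It was 0.11 without either Maltreated 3 or Control 3, 0.03 without Maltreated 2, -0.18 without Control 4 and -0.35 without Maltreated 1.

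**Figure D1:**
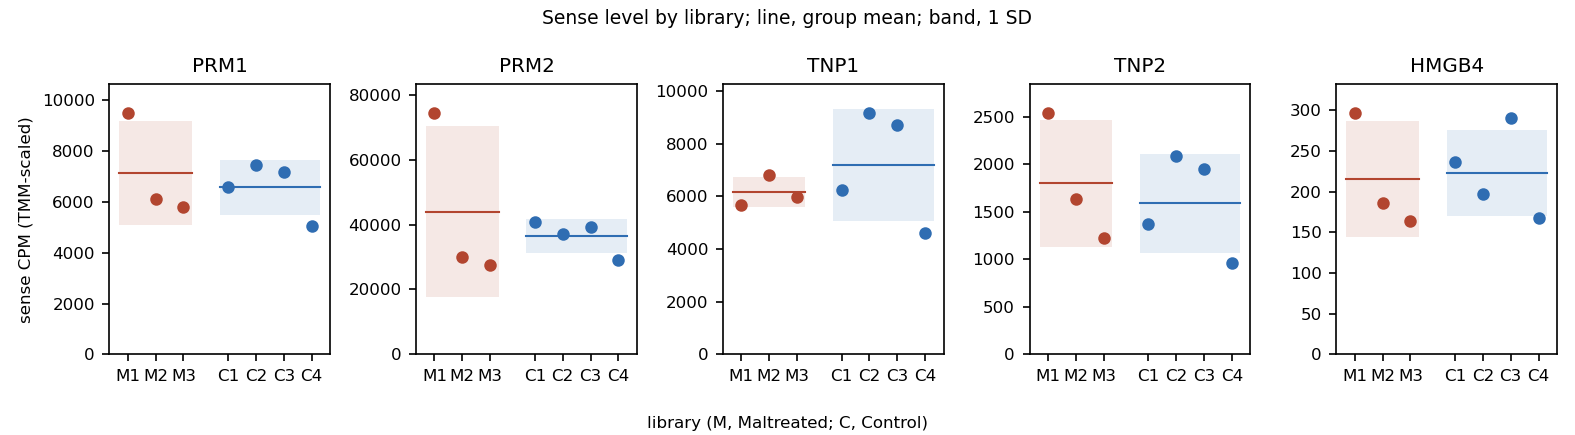
Sense level of each gene in CPM (linear axis from 0, TMM-scaled) for Maltreated libraries M1 to M3 and Control libraries C1 to C4, with the group mean as a line and 1 SD as a band. M1 is the highest point for PRM1, PRM2, TNP2 and HMGB4, but for TNP1 it lies at 5682 CPM, below the other Maltreated libraries.

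Over all 7 libraries the coefficient of variation of the level was 21.0% for PRM1, 24.3% for TNP1, 25.4% for HMGB4, 32.5% for TNP2 and 40.5% for PRM2. Control 4 was the lowest library for PRM1, TNP1 and TNP2, and Maltreated 3 for PRM2 and HMGB4. These are the libraries with 683 and 1002 CPM of leukocyte markers. Among the further sperm markers, Control 4 was the highest library for CRISP2 (1539 CPM), PGK2, AKAP4 (193 CPM), LDHC, ACRV1, SMCP and TSSK6. It was the lowest for SPACA1 (0 CPM) and ZPBP (9.87 CPM), and lay between for GAPDHS, ODF1 and ODF2. With Control 4 and Maltreated 3 left out, the log2 fold changes were 0.12 for PRM1, 0.40 for PRM2, -0.38 for TNP1, 0.20 for TNP2 and -0.01 for HMGB4. None passed the edgeR threshold. With the age of each animal as a covariate all 5 were negative, from -0.25 in PRM1 to -0.57 in TNP1, and again none passed in edgeR. Only Control 3, at 5.72 years, has an age within the Maltreated range, so the part of age and that of the group cannot be told apart in most Control libraries.

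**Figure D2:**
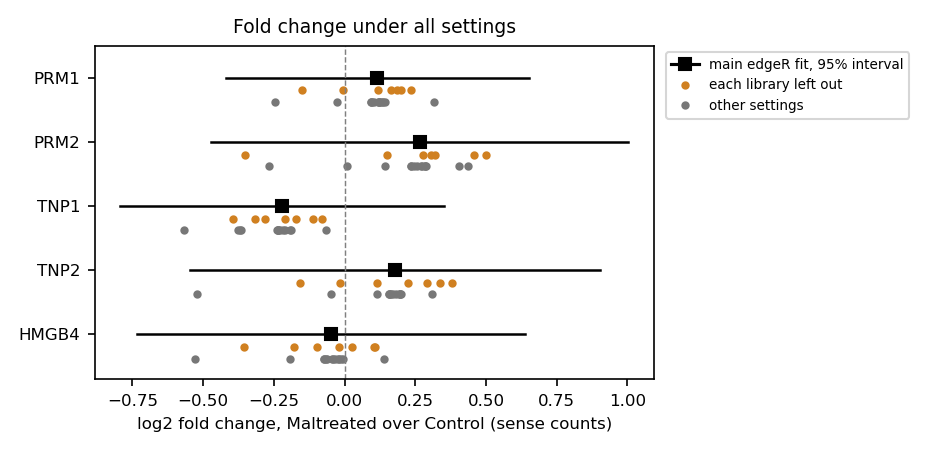
Log2 fold change of Maltreated over Control sense counts for each gene: squares with bars are the edgeR fit and its 95% interval, orange points leave out each library in turn, and grey points are the other settings. Every 95% interval spans 0, and TNP1 is the only gene whose points all lie on the negative side.

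Ratios between these genes within a library do not depend on how libraries are scaled. The ratio of PRM2 to PRM1 counts was 7.82, 4.93 and 4.73 in Maltreated 1 to 3, and 6.16, 4.97, 5.47 and 5.73 in Control 1 to 4. Maltreated 1 was the highest and the other Maltreated libraries the lowest, on both sides of the Control range. The group values were 5.83 ± 1.73 in Maltreated (SD, n = 3) and 5.58 ± 0.495 in Control sperm (SD, n = 4), and an exact permutation test over 35 splits on the log2 ratio gave p = 0.943. The spread of this ratio was thus larger among 3 Maltreated libraries than among 4 Control libraries, but it rests on Maltreated 1, and the difference in spread was not tested.

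The ratio of TNP1 to TNP2 counts was 2.24, 4.15 and 4.89 in Maltreated 1 to 3, and 4.56, 4.39, 4.46 and 4.80 in Control 1 to 4. The Control libraries lay within 4.39 to 4.80, and Maltreated 1 had less than any other library. The difference of the mean log2 ratios, Maltreated minus Control, was -0.35 (exact permutation p = 0.257), and it was -0.01 without Maltreated 1. The ratio of TNP1 to PRM2 counts was 0.0766, 0.226 and 0.218 in Maltreated 1 to 3, and 0.153, 0.246, 0.222 and 0.159 in Control 1 to 4. Here too Maltreated 1 was the lowest, while Maltreated 2 and 3 lay within the Control range.

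In the ratios of TNP2 and HMGB4 to PRM1, Maltreated 1 did not stand apart. The ratio of TNP2 to PRM1 was 0.267, 0.268 and 0.211 in Maltreated 1 to 3, and 0.207, 0.279, 0.272 and 0.190 in Control 1 to 4. That of HMGB4 to PRM1 was 0.0312, 0.0305 and 0.0281 in Maltreated 1 to 3, and 0.0357, 0.0264, 0.0404 and 0.0330 in Control 1 to 4. Among all 10 pairs the exact permutation p ran from 0.257 to 0.943, and the Benjamini-Hochberg adjusted exact p from 0.921 to 0.943. The smallest p that 35 splits can give is 0.0286.

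**Figure D3:**
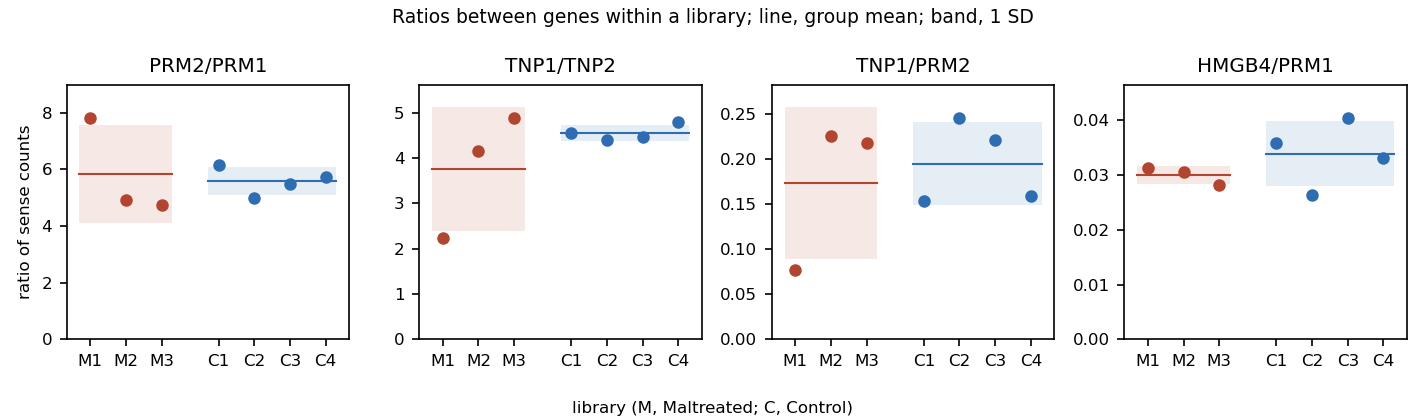
Ratio of sense counts between pairs of genes within each library (linear axes from 0) for Maltreated libraries M1 to M3 and Control libraries C1 to C4, with group mean and 1 SD. M1 stands at 7.82 for PRM2/PRM1, at 2.24 for TNP1/TNP2 and at 0.0766 for TNP1/PRM2, apart from the other 6 libraries in each, and within the Control range for HMGB4/PRM1.

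How evenly a pair of genes moved across the libraries was measured by the SD over 7 libraries of the difference of their log2 CPM, where a small SD means that the ratio stayed the same. Among the members PRM1 and HMGB4 were the most alike, with an SD of 0.21, followed by PRM1 and TNP2 with 0.23. TNP1 and PRM2 were the least alike, with an SD of 0.59. This order rests on Maltreated 1. Without it, an alternative chosen after seeing the data, TNP1 and TNP2 were the most alike, with an SD of 0.087 against 0.39 over all libraries. PRM1 and PRM2 followed with 0.15, while PRM1 and HMGB4 stood at 0.23, PRM1 and TNP2 at 0.24, and TNP2 and HMGB4 were the least alike at 0.35. Outside the members, the genes most like PRM1 were LRGUK (SD 0.08), TBC1D19 (0.11) and RNF11 (0.12). Those most like PRM2 were TMEM132B (0.16), SPATC1 (0.16) and C1orf234 (0.18). Those most like TNP1 were GPI (0.09), SCMH1 (0.13) and R3HDM2 (0.13), and those most like TNP2 were TMEM239 (0.12), ACTRT2 (0.16) and SSR4 (0.17). Those most like HMGB4 were LRBA (0.099), ZNF333 (0.11) and ENAH (0.12). Across all tested genes the median SD was 1.10 against PRM1 and 1.16 against PRM2. These genes were picked for their closeness among all tested genes, so the values are a description. Without Maltreated 1 they were among the closest 46 genes of their member, and TMEM239 and LRBA were then the closest of all to TNP2 and HMGB4.

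Each gene has a first and a second exon, counted from its 5′ end. How a read that spans both was counted is not stated, and such reads may count on each. Exon 1 of PRM2 holds 56.1% of the exon length and took 81.5, 81.4 and 82.8% of its sense counts in Maltreated 1 to 3, and 82.5, 84.5, 83.0 and 85.96% in Control 1 to 4. Exon 1 of PRM1, with 51.1% of the length, took 69.7 to 74.0% in Maltreated and 68.0 to 75.7% in Control libraries. In TNP1 exon 1 holds 40.8% of the length and took 54.3 to 58.1% in Maltreated and 51.9 to 60.3% in Control libraries. In TNP2 exon 1 holds 72.3% of the length and took 87.3 to 88.7% in Maltreated and 85.5 to 94.3% in Control libraries. All 4 genes thus carried more sense counts on the 5′ exon than its length would give, in all 7 libraries.

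HMGB4 had the opposite form. Its exon 1, 417 bases or 17.8% of the length, held 12, 0 and 0 sense counts in Maltreated 1 to 3, and 3, 0, 6 and 3 in Control 1 to 4. Exon 2, of 1931 bases, held all others, between 894 and 8823 in a library. The group difference in the exon 1 share was largest in PRM2, at 81.9 ± 0.793% in Maltreated (SD, n = 3) and 83.99 ± 1.57% in Control sperm (SD, n = 4), where the exact permutation p was 0.143 and the adjusted exact p 0.714. For the other 4 genes the adjusted exact p was 0.857 or higher.

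Sense reads covered 100% of the exon bases of PRM1, PRM2, TNP1 and TNP2 in every library. HMGB4 was covered over 88.1, 32.8 and 41.5% of its bases in Maltreated 1 to 3, and over 57.2, 30.8, 32.9 and 36.8% in Control 1 to 4. The covered share was highest in Maltreated 1 and Control 1, where HMGB4 also had the most counts, 8835 and 2211. An exact permutation test gave p = 0.514 for the groups (54.1 ± 29.7% in Maltreated, SD, n = 3, and 39.4 ± 12.1% in Control, SD, n = 4), and without Maltreated 1 the Maltreated minus Control difference was -2.29 percentage points.

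Antisense counts were measured for the same exons. PRM2 had 22876, 5037 and 6472 antisense CPM (relative to the antisense total, TMM-scaled) in Maltreated 1 to 3, and 11762, 3873, 5317 and 6153 in Control 1 to 4. By antisense count PRM2 ranked between 3 and 41 among all genes, PRM1 between 40 and 188 and TNP1 between 48 and 212, while TNP2 ranked at 611 or lower and HMGB4 at 1617 or lower. As a share of all its counts, the antisense part of PRM2 was 2.48, 1.496 and 1.66% in Maltreated 1 to 3, and 2.27, 0.867, 1.17 and 2.67% in Control 1 to 4. The 95% Wilson intervals of the extremes were 0.827 to 0.907% in Control 2 and 2.59 to 2.75% in Control 4, so libraries of the same group differed beyond counting error. Such intervals hold the counting error alone, as PCR copies of a molecule cannot be recognised here.

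The antisense share of PRM1 was 2.06, 2.67 and 2.14% in Maltreated 1 to 3, and 1.51, 3.17, 2.61 and 1.82% in Control 1 to 4. That of TNP1 was 3.02, 2.65 and 1.89% in Maltreated 1 to 3, and 1.81, 2.36, 2.15 and 1.77% in Control 1 to 4. TNP2 had much less, 0.224 to 0.472% in Maltreated and 0.155 to 0.424% in Control libraries. HMGB4 had 0.540 to 2.36% in Maltreated and 0 to 0.808% in Control libraries, where the 0 of 1699 counts in Control 3 allow a share of up to 0.177% (3 counts). HMGB4 is enclosed by CSMD2 on the opposite strand, so its antisense reads cannot be told apart from reads of a CSMD2 intron. In all 7 libraries the share of each of the 5 genes was below that of the whole library, and the median over tested genes, pooled over libraries, was 4.51%. This median was itself below the share of every library (6.15% or more), so lying below the library share is not particular to the members.

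For the antisense share, the exact permutation test gave p = 0.2 for TNP1, 0.257 for TNP2, 0.171 for HMGB4, 0.829 for PRM2 and 0.971 for PRM1, with adjusted exact p of 0.429 or higher. The edgeR test on antisense counts passed 0 of 4382 genes (0%), 2.51% of them had an unadjusted p under 0.05, and the groups of 4.36% of these genes did not overlap. In that test the log2 fold changes of the 5 genes ran from 0.17 ± 0.69 (SE) in TNP1 to 1.31 ± 1.55 in HMGB4, with an edgeR adjusted p of 0.998 for each. That of PRM2 was 0.76 ± 0.64 (SE), and -0.21 without Maltreated 1. That of TNP2 was 0.80 ± 1.26 (SE), and between 0.17 (without Maltreated 1) and 1.501 (without Control 2). That of HMGB4 lay between 0.81 (without Maltreated 2) and 1.89 (without Control 1).

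The antisense counts lay on another part of the gene than the sense counts in PRM2 and TNP1. In PRM2, exon 2 held 93.4, 86.6 and 90.8% of the antisense counts in Maltreated 1 to 3, and 94.5, 73.9, 85.1 and 94.4% in Control 1 to 4, while it held only 14.0 to 18.6% of the sense counts. In TNP1, exon 2 held 96.9 to 98.8% of the antisense counts and 39.7 to 48.1% of the sense counts over the 7 libraries. In PRM1 it was exon 1 that held most antisense counts, 87.7 to 95.3%, against 68.0 to 75.7% of the sense counts. In TNP2, exon 1 held 82.4 to 100% of the antisense counts, but these were only 8 to 359 in a library.

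Counted within exon 2 of PRM2, antisense reads took 11.3, 6.60 and 8.17% of all reads in Maltreated 1 to 3, and 11.1, 4.00, 5.60 and 15.6% in Control 1 to 4. Within its exon 1 the antisense part was 0.187 to 0.249% in Maltreated and 0.154 to 0.269% in Control libraries. The antisense part of exon 1 thus varied less among the libraries than that of exon 2, which did not separate the groups (exact permutation p = 0.943 over 35 splits). In TNP1 the antisense part was 6.74, 5.56 and 4.27% of exon 2 in Maltreated 1 to 3, and 4.29, 4.698, 4.68 and 4.21% in Control 1 to 4, but at most 0.142% of exon 1 in any library. The difference between the exons held in 7 of 7 libraries for PRM1, PRM2 and TNP1.

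**Figure D4:**
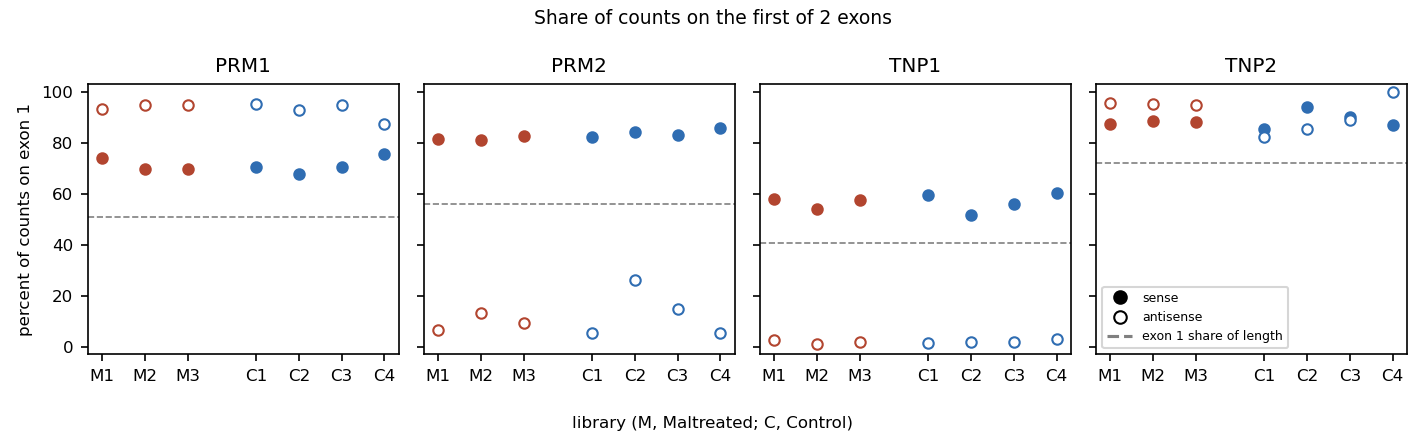
Percent of the sense counts (filled points) and antisense counts (open points) that lie on exon 1 of each gene, by library (M1 to M3 Maltreated, C1 to C4 Control), with the share of the exon length as a dashed line. In PRM2 and TNP1 the antisense points lie near the bottom, at most 26.1% for PRM2 and 3.13% for TNP1, and the sense points above the dashed line.

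Genes around the members were described from lists. PRM3, between TNP2 and PRM2 on chromosome 16, encodes an acidic protein despite its name. It had 238, 242 and 287 CPM in Maltreated 1 to 3, and 193, 511, 415 and 153 CPM in Control 1 to 4. Its level per kb was 902 ± 395 CPM (SD, n = 7), below each of its cluster neighbours PRM1, PRM2 and TNP2. The log2 fold change was -0.31 ± 0.41 (SE; edgeR adjusted p = 0.999), and 0.02 without Control 2, the library with the most PRM3 and the most RNA of the accessory gland marker TGM4. SOCS1, a suppressor of cytokine signalling beside the cluster, stood at only 3.91 to 4.62 CPM in Maltreated and 4.05 to 8.16 CPM in Control libraries. CSMD2, which encloses HMGB4, stood at 4.08 to 5.90 CPM in Maltreated and 2.39 to 12.3 CPM in Control libraries. IGFBP5, a growth factor binding protein gene on chromosome 2b (104824969 to 104845689), lies more than 100 kb from TNP1. It reached 16.2 CPM in Maltreated 2 and at most 3.73 CPM elsewhere.

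The HMG-box relatives of HMGB4, which bend DNA, were much less abundant. HMGB1 had 19.9 ± 15.5 CPM in Maltreated (SD, n = 3) and 36.6 ± 14.1 CPM in Control sperm (SD, n = 4). HMGB2 had 45.1 ± 18.2 CPM in Maltreated (SD, n = 3) and 23.7 ± 16.5 CPM in Control sperm (SD, n = 4). HMGB3 had 3.51 to 3.95 CPM in Maltreated and 0.342 to 7.08 CPM in Control libraries. The log2 fold changes were -0.87 ± 0.64 (SE) for HMGB1 and 0.92 ± 0.68 for HMGB2, neither past the edgeR test, and the groups of all 3 overlapped. Without Maltreated 3, the library with the most leukocyte RNA, that of HMGB1 was -1.73, and without Maltreated 2 or Control 4 that of HMGB2 was 0.55 or 0.57.

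Of 23 genes of histone replacement and nuclear condensation, 21 were in the table and 18 were tested, 0 passed in either direction, and the log2 fold change was above 0 in 6 and below 0 in 12. The median was -0.19, and all 18 had overlapping groups. The 3 with the smallest p were SIRT7, HIST1H2BA and TOP2B. HIST1H2BA, a testis-specific H2B histone, had 64.0, 42.2 and 70.8 CPM in Maltreated 1 to 3, and 88.0, 119, 104 and 51.6 CPM in Control 1 to 4. Only Control 4 lay within the Maltreated range, and the log2 fold change was -0.62 ± 0.40 (SE; edgeR unadjusted p = 0.152, adjusted p = 0.999). Without Maltreated 3 and Control 4 it was -0.97. SIRT7, a deacetylase of histone H3, had 68.9 CPM in Control 4 and at most 5.26 CPM in any other library. Its log2 fold change was -3.25 ± 1.66 (SE), and -0.59 without Control 4. TOP2B, a topoisomerase that relaxes DNA, gave 1.03 ± 0.82 (log2 fold change, SE), and 0.64 without Maltreated 2 and 1.64 without Control 2.

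Of 18 genes that control the transcription, storage or modification of these products, 18 were tested, 0 passed, and the log2 fold change was above 0 in 7 and below 0 in 11, with a median of -0.25 beside -0.02 over all tested genes. CAMK4, a kinase that phosphorylates protamine 2 in mouse, had 14.2, 3.85 and 23.3 CPM in Maltreated 1 to 3, and 27.7, 12.7, 57.6 and 44.2 CPM in Control 1 to 4. Its log2 fold change was -1.36 ± 0.74 (SE; edgeR unadjusted p = 0.0931, adjusted p = 0.999). Leaving out 1 library moved it between -1.98 (without Maltreated 3) and -0.94 (without Maltreated 2), and limma voom with weights gave -0.79. PAIP2, a regulator of translation that in mouse is needed for normal protamine synthesis, gave -0.81 ± 0.48 (log2 fold change, SE), and -0.35 without Control 4, where it reached 217 CPM. KDM3A, a histone demethylase that acts on the Tnp1 and Prm1 promoters in mouse, gave 0.74 ± 0.61 (log2 fold change, SE), and 0.25 without Maltreated 3.

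In 2 of these 18 genes the groups did not overlap, which was so in 3.59% of all tested genes, and both are named because of it, after their values were seen. GTF2A1L, a germ cell form of a general transcription factor, had 54.6, 51.2 and 50.5 CPM in Maltreated 1 to 3, and 74.2, 60.4, 75.5 and 55.7 CPM in Control 1 to 4. TARBP2, an RNA-binding protein needed in mouse for protamine translation, had 1.84 to 2.69 CPM in Maltreated and 0 to 1.28 CPM in Control libraries. Neither passed the edgeR test.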

How the data were processed

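The submitters' processing notes name bedtools, featureCounts and STAR, but neither their versions nor what each did. The authors deposited, for every library, counts of reads over each exon and the covered fraction of the exon, in a forward and a reverse file, and a table of sense and antisense counts per gene. The table's counts equalled the sums over exon entries in 127974 of 127974 values for each strand. Numbered libraries of the table were matched to samples by the number in each sample's own files. Genes on both strands (2) were left out.

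Tests across genes used edgeR 4.0.16 under R 4.3.3 (TMM, filterByExpr with minimum count 10 and total 15, quasi-likelihood F test, Benjamini-Hochberg threshold 0.05), and the SE is the log2 fold change over the root of F. Ratios used counts plus 0.5. Exact permutation tests used scipy 1.17.1. All tests were two-sided, and the scripts that run them were tested on simulated data. Alternatives were DESeq2 1.42.0, limma 3.58.1 voom with weights, other scalings and filters, replicate block, age, other exon summaries and left-out libraries.

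Members, lists and comparisons were chosen with earlier results of these data known. Named are the members, the 3 genes with the smallest p of each of 2 gene lists (histone replacement, control of these genes), HMG-box relatives, neighbours and the 3 nearest genes of each member.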

Additional observations from a re-analysis of the deposited data

How the results depend on the processing

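No member passed the edgeR threshold under any alternative run, but the direction of most depended on it. With the replicate block the log2 fold changes were -0.027 (PRM1) and -0.049 (TNP2), and for antisense counts -0.015 (PRM1) and -0.077 (TNP1), and the block changed no call. The labels do not say whether the replicate numbers pair animals. The correlations of same-numbered deviations were 0.07, 0.01 and -0.02, and those of different-numbered libraries ran from -0.11 to 0.09. So few libraries cannot decide whether there was a pairing. With age they were -0.25 (PRM1), -0.27 (PRM2), -0.52 (TNP2) and 0.46 (SIRT7). With the largest exon count they were 0.14 (HMGB4) and -0.25 (KDM3A), and the log2 PRM2/PRM1 difference was -0.010. The cause was not tested. Sense counts called 0 genes (191 at an unadjusted p under 0.05), 3 by DESeq2 and 1 with age. Antisense counts called 0 (110 unadjusted), and 24 with a mean count of at least 1, which tests 14640 genes. Weights in voom put the median of all genes at 0.13. There TNP1 gave -0.37 (limma unadjusted p = 0.0527, adjusted p = 0.9997), and 352 of 10719 genes had a limma unadjusted p under 0.05.

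Leaving out each library gave ranges of -0.15 to 0.23 (PRM1), -0.35 to 0.50 (PRM2), -0.39 to -0.08 (TNP1), -0.16 to 0.38 (TNP2), -0.35 to 0.11 (HMGB4) and -0.55 to 0.016 (PRM3), and for antisense counts -0.051 to 0.55 (PRM1), -0.21 to 1.22 (PRM2), -0.084 to 0.47 (TNP1), 0.17 to 1.501 (TNP2) and 0.81 to 1.89 (HMGB4). The log2 ratio differences ranged from -0.21 to 0.16 (PRM2/PRM1), -0.44 to 0.012 (TNP1/PRM1), -0.56 to 0.22 (TNP1/PRM2), -0.017 to 0.20 (TNP2/PRM1), -0.10 to 0.23 (TNP2/PRM2), -0.30 to 0.014 (HMGB4/PRM2) and -0.20 to 0.26 (HMGB4/TNP1). The log2 PRM1/TNP1 ratio per kb ranged from -0.12 to 0.054. Exon 1 shares differed by -1.44 to 1.45 (PRM1), -1.94 to 0.949 (TNP1) and -2.49 to 0.452 (TNP2) percentage points, antisense shares by -0.241 to 0.314 (PRM1) and -0.165 to 0.442 (PRM2), and HMGB4 coverage by -2.29 to 25.4.

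Without Control 4 and Maltreated 3 the log2 TNP2/PRM2 difference was -0.074, the exon 1 differences 2.21 (PRM1) and 0.380 (TNP1) points, the antisense difference of PRM1 -0.063 points, and the log2 PRM1/TNP1 ratio per kb -0.0053. The order steps were then 1.78 (PRM2/PRM1), 2.57 (TNP1/TNP2) and 4.90 (TNP2/HMGB4), which 5 libraries cannot bring past the threshold. Depth limits HMGB4 most, with 897 to 8835 sense counts in a library and 0 to 48 antisense counts.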
